A study of Mus musculus with 97 samples.

Results

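The 8 genes described here are Sall4, Sall1, Lin28a, Utf1, Dppa2, Dppa4, Dppa5a and L1td1, markers that embryonic stem (ES) cells share across pluripotent states. They were chosen by symbol, with earlier results of these data known, and are 8 of the 37620 genes in the RNA count table. The RNA libraries came from a mouse ES line, Sox2-AID, whose Sox2 protein is tagged with the AID degron, so that the plant hormone auxin brings about its destruction. Cells had either no auxin or auxin at 0.5 mM during 3 h, and each condition was sorted on Hoechst (20 µM during the final 20 min) and GFP levels into early G1, late G1 and G2, so that there were 6 groups of 3 libraries. All 6 groups shared the same line, gelatine-coated dishes and DMEM with 10% FCS and LIF at 10 ng/ml. The labels state that the 2i inhibitors PD0325901 and CHIR99021 were added when needed, and do not say whether they were present for these cells. RNA was total RNA depleted of ribosomal RNA.

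Limits of this model bear on every result. All libraries came from a single line, and no line without the tag is among the auxin-treated libraries, so loss of Sox2 and any other action of auxin cannot be told apart. Nothing in the labels says that the 3 libraries of a group came from separate cultures, so the p-values measure the spread between libraries, which may be technical. Auxin acts on the protein, so the Sox2 transcript does not check the depletion, and its log2 change over the 3 phases was 0.09 ± 0.08 (SE; adjusted p = 0.527, edgeR). In bulk RNA, fewer cells that express a gene and less RNA per cell cannot be told apart.

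Pluripotent cells hold their state through a network in which Sox2 and Oct4 bind many regulatory elements together, and the 8 genes sit around that network in different roles. Sall4 and Sall1 are zinc-finger transcription factors that recruit the NuRD deacetylase complex, and Sall4 is needed for ES cell self-renewal. Lin28a is an RNA-binding protein that blocks maturation of the let-7 microRNAs, and L1td1 is an RNA-binding protein descended from the first open reading frame of the LINE-1 retrotransposon. Utf1 is a chromatin-bound factor long known as a joint target of Oct4 and Sox2, through an enhancer downstream of its coding sequence. Dppa2 and Dppa4 form a heterodimer that keeps developmental promoters free of DNA methylation and can switch on genes of the 2-cell state. Dppa5a, also called Esg1, is an RNA-binding protein with a KH domain.

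The promoters are shown because auxin is meant to remove a DNA-binding factor. The letters before each start site are thus the context of the changes. The 250 bases upstream of the annotated start site, on the gene's own strand, are from RefSeq on GRCm38.p6, and 4 of the 8 genes had an entry. Capitals mark matches on either strand to any of 4 words: ATGCAAA (an octamer word), CATTGT and ACAAAGG (words of the Sox type) and GGGCGG (a GC box). Sall1 had 3 annotated start sites, of which the most upstream is given. Sall4, Dppa2, Dppa4 and Dppa5a are named only.
Sall1, chr8:89044163-89044412, minus strand: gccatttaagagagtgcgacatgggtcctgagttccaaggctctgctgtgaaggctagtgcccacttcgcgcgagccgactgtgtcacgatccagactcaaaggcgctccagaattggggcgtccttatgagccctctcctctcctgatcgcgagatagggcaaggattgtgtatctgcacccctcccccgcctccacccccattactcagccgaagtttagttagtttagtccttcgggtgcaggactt
Lin28a, chr4:134018817-134019066, minus strand: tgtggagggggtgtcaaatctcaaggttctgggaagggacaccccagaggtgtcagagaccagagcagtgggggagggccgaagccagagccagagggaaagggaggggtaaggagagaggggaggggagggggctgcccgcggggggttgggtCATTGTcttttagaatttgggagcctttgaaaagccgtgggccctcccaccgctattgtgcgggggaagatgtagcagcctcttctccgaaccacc
Utf1, chr7:139943606-139943855, plus strand: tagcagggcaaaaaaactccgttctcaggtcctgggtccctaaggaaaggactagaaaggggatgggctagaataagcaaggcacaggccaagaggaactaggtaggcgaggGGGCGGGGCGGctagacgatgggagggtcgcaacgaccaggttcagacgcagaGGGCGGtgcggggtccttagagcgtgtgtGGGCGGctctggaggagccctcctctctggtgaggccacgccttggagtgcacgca
L1td1, chr4:98726504-98726753, plus strand: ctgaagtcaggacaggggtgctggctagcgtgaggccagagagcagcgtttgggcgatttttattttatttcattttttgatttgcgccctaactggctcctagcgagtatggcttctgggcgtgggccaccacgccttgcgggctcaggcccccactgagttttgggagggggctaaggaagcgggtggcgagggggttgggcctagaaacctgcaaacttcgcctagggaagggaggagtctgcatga
The Utf1 window held 4 GC boxes, starting 138, 133, 85 and 56 bases upstream, and the first pair overlap. The Lin28a window held 1 CATTGT word, 96 bases upstream, and no other match. The windows of L1td1 and of this Sall1 start site held none of the 4 words. The windows of the other 2 Sall1 start sites, which are not printed, held 4 and 1 GC boxes and had a GC content of 74.4% and 78.4%. Among 32851 mouse promoter windows of the same length, 32.7% held GGGCGG, 10.7% CATTGT, 5.08% ACAAAGG and 4.12% ATGCAAA. GC content was 61.6% for Utf1, 61.2% for Lin28a, 57.6% for L1td1 and 56.4% for the shown Sall1 window, against a median of 52.4% over those windows. A match describes letters only and shows no binding. In the RefSeq annotation Dppa2 and Dppa4 are direct neighbours, and Dppa5a lies beside Ooep. Sall4 overlaps the non-coding gene Gm14261 and Sall1 overlaps Gm3134, and since the sources used here give no strand setting of the counting, reads of these partners cannot be told apart.

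Total counts ran from 24841963 to 37587322 per library, and libraries of the same group differed by far more than counting error (chi-square per degree of freedom 14.7 to 53.8). All 8 genes passed the filter on low counts, which kept 16011 genes, with between 923 reads (Utf1) and 47553 reads (Dppa5a) in a library. Markers of undifferentiated ES cells (Pou5f1, Sox2, Nanog, Zfp42, Esrrb, Fgf4, Tdgf1, Klf4 and Tbx3) were all present, with a summed level of 2710 to 3030 CPM (counts scaled to a common library size by TMM). Of 9 fibroblast or feeder markers, 4 had a median of 0 (Twist2, Dcn, Postn and Lum), and the summed level was 15.2 to 22.2 CPM. In that list 2 had a median of at least 1 CPM, namely Fbln1 with 12.6 CPM and Thy1 with 3.62 CPM.

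Per length of transcript, the 8 genes spanned a wide range of abundance. On the TPM scale (read counts per transcript length, scaled to a common sum) the median level over the 18 libraries was 546 for Dppa5a, 24.8 for L1td1, 11.7 for Sall4, 9.39 for Dppa4, 8.17 for Utf1, 7.50 for Lin28a, 5.10 for Dppa2 and 2.13 for Sall1. Dppa5a was above L1td1, L1td1 above Sall4 and Dppa2 above Sall1 in all 18 libraries, with ranges that did not overlap. The neighbours in the middle of the order changed places between libraries: Sall4 exceeded Dppa4 in 10 of 18 libraries, Dppa4 exceeded Utf1 in 11, and Utf1 exceeded Lin28a in 12. These counts pool both treatments, and the order of Sall4 and Dppa4 differed between them. Without auxin the means in early G1, late G1 and G2 were 13.4, 11.5 and 14.4 TPM for Sall4 and 9.94, 9.66 and 10.7 TPM for Dppa4. With auxin they were 8.82, 6.34 and 8.85 TPM for Sall4 and 8.82, 8.12 and 9.35 TPM for Dppa4. Lin28a exceeded Dppa2 in all 18 libraries, although their ranges overlapped. A single non-coding RNA (AC157822.1) took 50.5% to 62.4% of the TPM of a library, so TPM of the other genes moves with it.

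**Figure D1:**
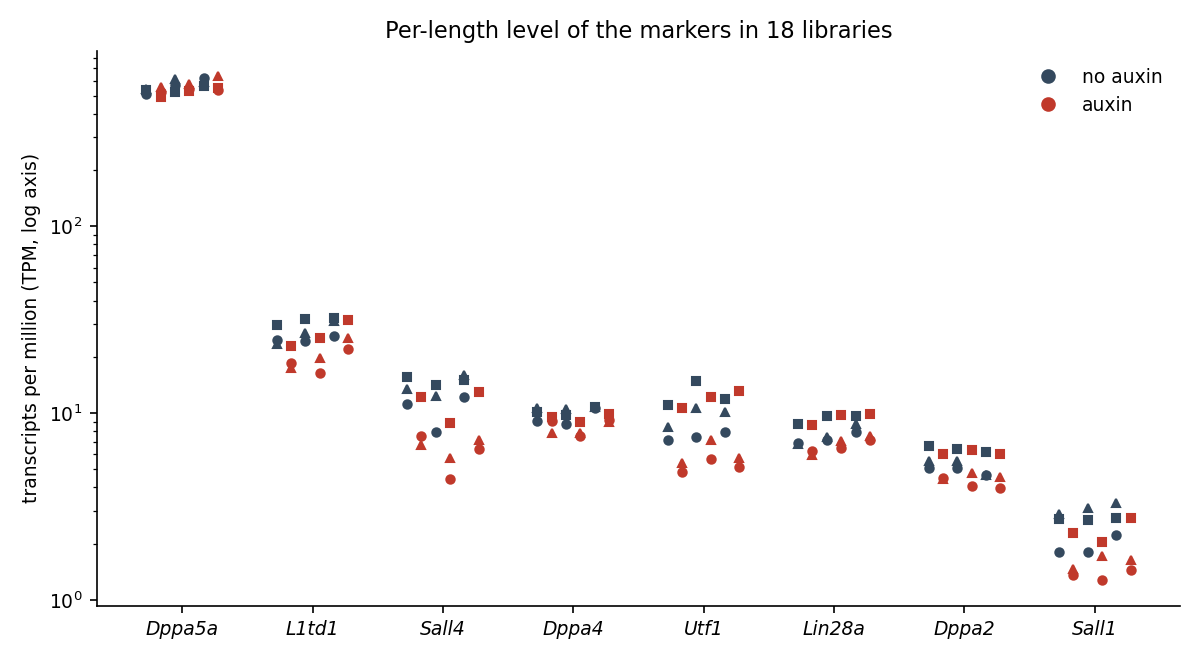
Level of each gene in TPM (log axis) in 18 libraries, ordered by median; circles, squares and triangles are replicates 1, 2 and 3, and auxin-treated libraries are red. Dppa5a (median 546) stands far above the rest, while Sall4, Dppa4, Utf1 and Lin28a overlap.

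Relatives of these genes had fewer reads. Lin28b, the paralog of Lin28a, had 782 to 1696 reads per library, Sall2 had 35 to 124 and Sall3 had 8 to 113. Dppa3, a maternal and germ cell factor, had 6 to 55 reads. Dppa5b and Dppa1 had at most 5 and 4 reads and were not tested. Reads of the near-identical Dppa5 copies depend on how the counting splits shared sequence, so the Dppa5a level is uncertain to that extent.

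The question put to the auxin comparison is how these markers behave in each phase after 3 h of auxin, which is meant to deplete Sox2. No measure of Sox2 protein is among the data used, and the phases are those at sorting, after the exposure. Sall4 alone among the 8 was called (edgeR quasi-likelihood test, adjusted p under 0.05), and only when the effect was averaged over the 3 phases, where it fell to 0.693 of the untreated level. Over all genes tested 5.68% were called in that average, 3.09% lower and 2.60% higher, and a count of 1 among 8 genes says little against that share. Within single phases edgeR called 0 of the 8 in each phase, where, for early G1, late G1 and G2 in turn, 0.106%, 1.02% and 0.668% of all genes were called. At an unadjusted p under 0.05 the counts were 0, 3 and 1 of 8, against 5.58%, 10.3% and 7.73% of all genes. DESeq2 called 0, 1 and 0 of the 8, against 0.312%, 1.99% and 1.39% of all genes. The median log2 change of the 8 was -0.09 in early G1, -0.12 in late G1, 0.00 in G2 and -0.07 in the average, against 0.01 for all genes in each of these but late G1, where it was 0.00.

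**Figure D2:**
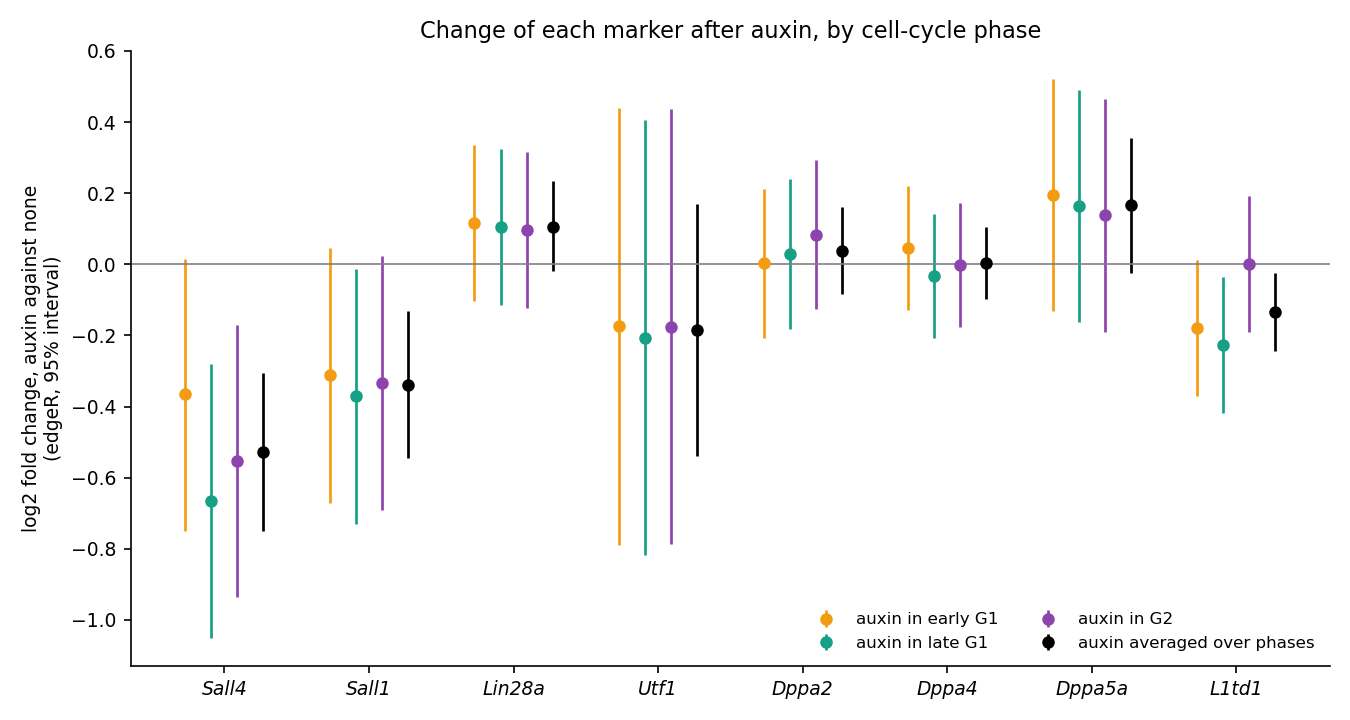
Log2 fold change of each gene, auxin against none, in early G1, late G1, G2 and averaged over phases (points), with 95% intervals from edgeR (bars). The intervals of the average lie below 0 for Sall4, Sall1 and L1td1 and include 0 for the other 5 genes.

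Sall4 carried the clearest response. In early G1 its level in replicates 1, 2 and 3 was 209, 247 and 225 CPM without auxin and 154, 215 and 159 CPM with it. In late G1 it was 161, 237 and 221 CPM without and 107, 151 and 131 CPM with auxin. In G2 it was 224, 258 and 294 CPM without and 146, 226 and 158 CPM with auxin. Each auxin-treated library was below the untreated library of its phase and number, at 53.5% to 87.4% of it in 9 of 9 pairs. The labels do not state that numbers pair libraries. Here and below, the 9 pairs share 3 replicate numbers and are not independent. The groups were apart in late G1 and overlapped in early G1 and G2. On the per-length scale, mean Sall4 levels went from 13.4 ± 2.2 to 8.82 ± 2.9 TPM in early G1, from 11.5 ± 3.2 to 6.34 ± 2.2 TPM in late G1 and from 14.4 ± 2.0 to 8.85 ± 3.5 TPM in G2 (SD, n = 3). All genes also moved down with auxin on that scale, with median log2 changes of -0.083, -0.077 and -0.068 in these phases (pseudocount 1).

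Averaged over phases, the log2 change of Sall4 was -0.53 ± 0.11 (SE), with a 95% interval of -0.75 to -0.31 and an adjusted p of 0.00519 (edgeR). By phase it was -0.37 ± 0.18 in early G1 (adjusted p = 0.867), -0.67 ± 0.18 in late G1 (adjusted p = 0.11) and -0.55 ± 0.18 in G2 (adjusted p = 0.286). With the replicate number as a block, a pairing found in the values for early and late G1, the late G1 change passed (-0.66, adjusted p = 0.000617), in a fit that called 5.95% of all genes, and the early G1 change did not (-0.38, adjusted p = 0.078). The call in the average held when any single library was left out, with log2 changes from -0.64 to -0.43 over all these fits and those without a replicate number. It was lost without replicate 3 in all groups (-0.43, adjusted p = 0.291), and without the 3 untreated libraries numbered 3 (-0.48, adjusted p = 0.0606).

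Sall1, the other factor of the Sall family, had similar values at a lower level. In early G1 replicates 1, 2 and 3 had 49.6, 62.0 and 66.7 CPM without auxin and 40.7, 55.9 and 46.9 CPM with it. In late G1 they had 52.3, 64.7 and 75.9 CPM without and 43.5, 52.4 and 53.2 CPM with auxin. In G2 they had 59.2, 65.6 and 81.4 CPM without and 45.8, 67.4 and 50.3 CPM with auxin. Sall1 was lower with auxin in 8 of 9 pairs, at 61.8% to 103% of the untreated level, and the groups overlapped in every phase. The average log2 change was -0.34 ± 0.10 with an adjusted p of 0.0509, just short of the threshold. By phase it was -0.31 ± 0.17, -0.37 ± 0.17 and -0.33 ± 0.17 in early G1, late G1 and G2 (adjusted p = 0.867, 0.468 and 0.689). The blocked fit passed in late G1 (-0.36, adjusted p = 0.0419). The average also passed with DESeq2 (-0.34, adjusted p = 0.015), and with edgeR it passed without any of 5 single libraries, namely auxin-treated replicate 2 in early G1 or in G2 and untreated replicate 1 in any of the 3 phases. It moved the other way, to -0.21 (adjusted p = 0.578), without replicate 3 in all groups, and to -0.22 (adjusted p = 0.295) without the 3 untreated libraries numbered 3. Over the leave-out fits it ranged from -0.45 to -0.21.

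L1td1 had its lower values with auxin in the G1 phases. In early G1 replicates 1, 2 and 3 had 290, 294 and 234 CPM without auxin and 240, 242 and 241 CPM with it. In late G1 they had 303, 333 and 293 CPM without and 248, 278 and 267 CPM with auxin, and these groups were apart. In G2 they had 295, 337 and 334 CPM without and 304, 327 and 335 CPM with auxin, and these groups overlapped. In the late G1 comparison 13.7% of all genes had groups that did not overlap, as did 2 of the 8 (Sall4 and L1td1). The log2 change of L1td1 was -0.18 ± 0.09, -0.23 ± 0.09 and 0.00 ± 0.09 in early G1, late G1 and G2 (adjusted p = 0.867, 0.362 and 0.999) and -0.13 ± 0.05 in the average (adjusted p = 0.139). No change of L1td1 by auxin was called in any phase. The average passed on the TPM scale with pseudocount 0.1 (-0.345, adjusted p = 0.0486, limma), where the median of all genes was -0.16.

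Lin28a was near its untreated level. In early G1 it had 118, 126 and 97.4 CPM in untreated replicates 1, 2 and 3 and 120, 134 and 117 CPM in the auxin-treated ones. Late G1 had 134, 149 and 118 CPM without and 140, 157 and 135 CPM with auxin, and G2 had 131, 147 and 132 CPM without and 141, 152 and 145 CPM with auxin. The auxin-treated library was the higher of its pair in 9 of 9 pairs, at 101% to 120% of the untreated level, yet the average log2 change of 0.11 ± 0.06 did not pass (adjusted p = 0.299), and on the TPM scale it turned to -0.09 (pseudocount 1, adjusted p = 0.486). On that TPM scale the median of all genes was -0.08, so Lin28a moved with the other genes there. Of 15 tested genes of the Lin28 and let-7 axis, 0 were called higher and 1 lower, with a median of -0.01, against 5.68% of all genes called in this average. The called gene was Drosha, which cuts the microRNA precursors (-0.17 ± 0.05, adjusted p = 0.0463). Lin28b changed by 0.02 ± 0.07 (adjusted p = 0.873).

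Utf1 had the widest spread of the 8, with a biological coefficient of variation of 0.24. Untreated early G1 replicates 1, 2 and 3 had 37.5, 48.2 and 37.5 CPM and auxin-treated ones 27.2, 49.4 and 32.6 CPM. Late G1 had 40.5, 68.0 and 50.6 CPM without and 36.4, 59.8 and 41.7 CPM with auxin, and G2 had 39.5, 53.9 and 47.8 CPM without and 30.7, 60.8 and 33.5 CPM with auxin. Utf1 was lower with auxin in 7 of 9 pairs, with both exceptions in libraries numbered 2, and every pair of groups overlapped. The average log2 change was -0.19 ± 0.17 (adjusted p = 0.527), and its 95% interval of -0.54 to 0.17 spans a fall as large as that fitted for Sall4. Without the 3 auxin-treated libraries numbered 2, an alternative chosen after the data were seen, it was -0.48 (adjusted p = 0.0166, edgeR). Libraries numbered 2 were the highest for Utf1 in 6 of 6 groups, and the untreated ones stayed in that fit. The value is thus lowered by construction, and no conclusion is drawn from it. That fit called 2015 genes in the average, against 910 in the main fit.

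None of the 3 Dppa genes was called with auxin. Dppa2 stayed between 39.2 and 55.3 CPM in all 18 libraries and Dppa4 between 58.4 and 73.9 CPM, the narrowest relative range of the 8. Their average log2 changes were 0.04 ± 0.06 (95% interval -0.08 to 0.16, adjusted p = 0.724) and 0.00 ± 0.05 (95% interval -0.10 to 0.10, adjusted p = 0.975). On the TPM scale these turned to -0.14 and -0.19 (adjusted p = 0.28 and 0.0645), without a call. Dppa5a, the most abundant of the 8, had a mean of 993 ± 68.4 CPM in early G1 without auxin and 1140 ± 215 with it, 1120 ± 134 and 1260 ± 193 in late G1, and 1130 ± 105 and 1250 ± 242 in G2 (SD, n = 3). It was higher with auxin in 7 of 9 pairs, and its average log2 change of 0.17 ± 0.09 (adjusted p = 0.277) turned to -0.04 on the TPM scale. Leaving out a library or a replicate number moved the Dppa5a change between 0.06 and 0.24 without a call. Without the 3 auxin-treated libraries numbered 2, chosen after the data were seen, the Dppa5a change was 0.30 (adjusted p = 0.0134, edgeR). Libraries numbered 2 were the lowest for Dppa5a in 6 of 6 groups, and the untreated ones stayed in that fit. The value is thus raised by construction, and no conclusion is drawn from it. That fit called 2015 genes in the average, against 910 in the main fit. Genes known to need Dppa2 and Dppa4, or expressed in germ cells and the 2-cell state, did not pass either. Of 12 tested, 0 were called in the auxin average, against 5.68% of all genes. Their median log2 change was 0.20 (11 of 12 above 0), against 0.01 for all genes. The list holds the paralogs Zscan4c, Zscan4d and Zscan4f, so its signs are not independent, and they were not tested as a set. Dppa3 in that list changed by 0.59 ± 0.29 (adjusted p = 0.236) and Zscan4c by 0.23 ± 0.14 (adjusted p = 0.321).

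**Figure D3:**
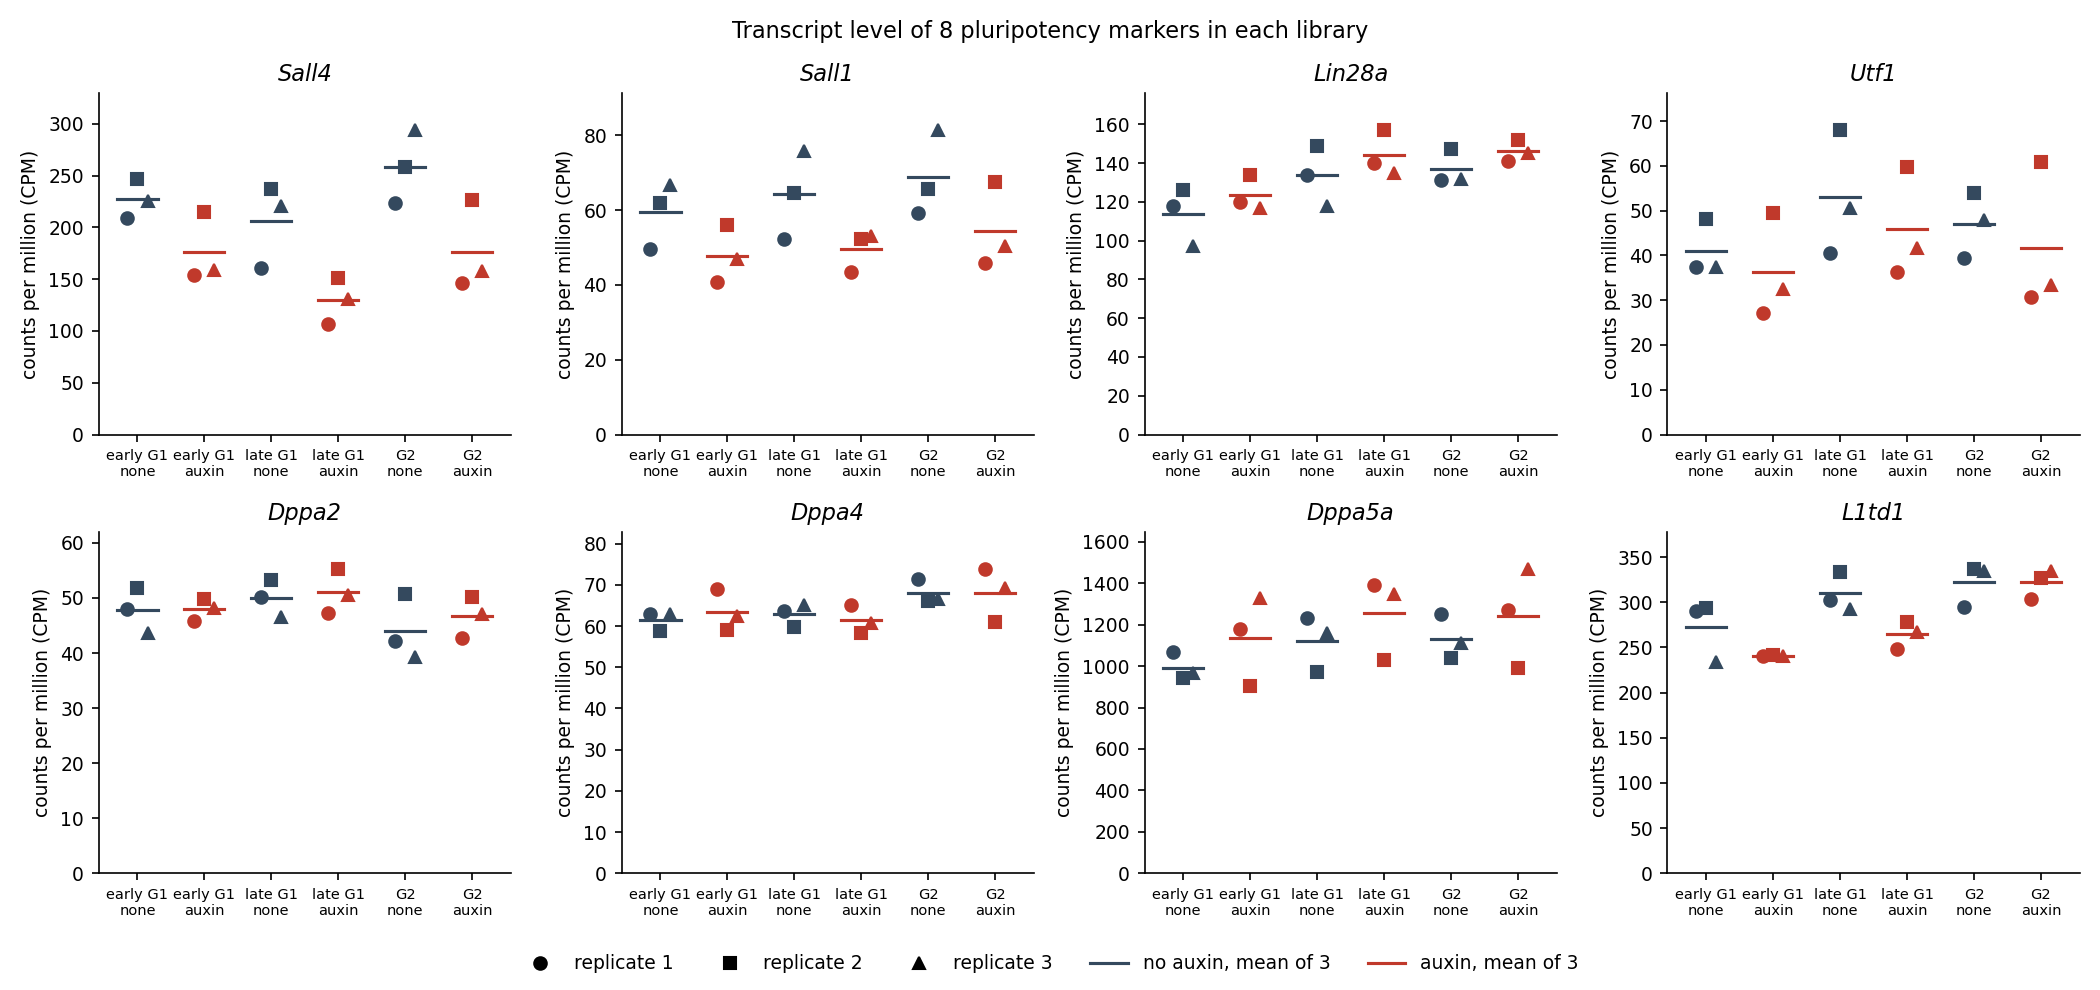
Level of each gene in CPM in every library, by phase and treatment (dark, no auxin; red, auxin); marks give replicates 1 to 3 and lines the mean of 3. Sall4 lies lower with auxin in all 9 pairs, and squares (replicate 2) are the highest mark of each group for Lin28a, Utf1 and Dppa2 and the lowest for Dppa4 and Dppa5a.

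Other genes of the undifferentiated state gave a frame for these values. Of 26 tested ES cell genes, 0 were called higher and 8 lower in the auxin average, against 2.60% and 3.09% of all genes. This list was written with earlier results of these data known, so its count is not an independent result. The median of the 26 was -0.07, and 11 of them were above 0. Zfp42 (Rex1) fell by 0.34, Nanog by 0.29 and Fgf4, the growth factor gene of a classical Sox2 enhancer, by 0.40 on the log2 scale (SE 0.05, 0.04 and 0.06, adjusted p = 0.000334, 0.000532 and 0.000743). Of 16 tested Sall family genes and NuRD partners, 0 were called in either direction, against 5.68% of all genes, and the median was -0.01. Sall3 had a log2 change of -1.05 ± 0.31 (adjusted p = 0.0528) at a mean of 1.81 CPM, and Sall2 of 0.12 ± 0.21 (adjusted p = 0.769). Chd4, the NuRD helicase, changed by -0.02 ± 0.06 (adjusted p = 0.89) and Rbbp4 by 0.08 ± 0.06 (adjusted p = 0.419).

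The summed levels of markers of 2 other lineages also differed with auxin, at low levels, and were not tested. The summed level of 10 trophectoderm markers was 40.4 to 51.7 CPM without auxin and 52.5 to 59.6 with it in early G1, 30.5 to 36.5 and 40.7 to 49.2 in late G1, and 27.9 to 32.6 and 35.8 to 45.6 in G2. These ranges were apart in every phase, as were the libraries of 11.3%, 13.7% and 11% of single genes in these comparisons. No marker of that list had a median of 0, but only 5 of the 10 had a median of at least 1 CPM. The largest medians were 15.4 CPM for Krt8, 7.73 for Krt18, 7.56 for Eomes and 5.64 for Tfap2c. Cdx2 had a median of 0.573 CPM and Elf5 of 0.0295 CPM. Primitive streak and mesoderm markers summed to 3.36 to 6.86 CPM without auxin and 2.21 to 4.02 CPM with it. Of the 6 found in the data, 1 had a median of at least 1 CPM, namely Kdr with 2.62 CPM. The sums of primitive endoderm markers overlapped in every phase, with 97.2 to 154 CPM without auxin and 79.3 to 160 CPM with it in early G1. Sums of neural progenitor, 2-cell-like and fibroblast markers overlapped in every phase too. The part of cells of these lineages in the Sall4 and Sall1 values was not tested.

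The phase comparisons ask whether these markers vary through interphase. L1td1 with auxin was the only called case among the 8. It rose from 240, 242 and 241 CPM in early G1 to 304, 327 and 335 CPM in G2, a 1.34-fold difference (log2 0.42 ± 0.09, adjusted p = 0.0139, edgeR). The groups did not overlap, which held for 23.0% of all genes in this comparison. Over all genes 3.88% were called there and 2.09% were higher in G2, against 1 of 8 here. The call was lost without early G1 replicate 1 or 3 or G2 replicate 3 of the auxin-treated libraries (adjusted p = 0.0618, 0.0542 and 0.0684). It was also lost without all libraries of replicate 1, 2 or 3 (adjusted p = 0.15, 0.199 and 0.0604). Without the 3 auxin-treated libraries numbered 2, chosen after the data were seen, the adjusted p was 0.102. The log2 change in the leave-out fits stayed between 0.39 and 0.46. On the TPM scale the call was lost too (0.40, pseudocount 1, adjusted p = 0.545). With the block the adjusted p was 0.000313.

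Without auxin the same L1td1 difference was smaller and did not pass: G2 against early G1 gave 0.24 ± 0.09 (adjusted p = 0.176), and 0.24 with the block (adjusted p = 0.0256). G2 against late G1 with auxin gave 0.29 ± 0.09 (adjusted p = 0.0777), which passed with the block (adjusted p = 0.00633). Whether auxin acted on L1td1 differently in G2 and late G1 was tested directly, and the difference of 0.23 ± 0.13 (95% interval -0.04 to 0.50) had an adjusted p of 1.

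Lin28a was lower in early G1 than later in interphase in its mean values, as were Sall1, Utf1, Dppa5a and L1td1. Without auxin the Lin28a mean in early G1 was 114 ± 15.0 CPM, followed by 134 ± 15.8 for late G1 and 137 ± 9.21 for G2, and with auxin the means were 124 ± 9.46, 144 ± 11.6 and 146 ± 5.50 CPM (SD, n = 3). The early G1 and G2 groups of Lin28a were apart both with and without auxin. Without auxin 3 of the 8 were apart in this comparison (Lin28a, Dppa4 and L1td1), against 21.9% of all genes. With auxin 2 of the 8 were apart (Lin28a and L1td1), against 23.0% of all genes. For Lin28a, late against early G1 gave log2 0.23 ± 0.10 without auxin and 0.22 ± 0.10 with it (adjusted p = 0.211 and 0.225). G2 against early G1 gave 0.26 ± 0.10 and 0.24 ± 0.10 (adjusted p = 0.197 and 0.237). None of these passed in the unblocked fit. All 4 passed with the replicate block, with adjusted p of 0.00827, 0.0107, 0.0043 and 0.00741 in that order, in fits that called 21.8%, 22.6%, 14.7% and 15.2% of all genes.

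Sall4 was lowest in late G1 in both conditions by its group mean. With auxin its late G1 libraries (107, 151 and 131 CPM) were all below its early G1 libraries (154, 215 and 159 CPM), and 27.9% of all genes had groups apart in this comparison. That log2 difference of -0.44 ± 0.18 (adjusted p = 0.164) passed with the block (adjusted p = 0.0048). G2 against late G1 gave 0.44 ± 0.18 with auxin (adjusted p = 0.188) and 0.33 ± 0.18 without (adjusted p = 0.379), and both passed with the block (adjusted p = 0.00639 and 0.027), in fits that called 17.7% and 15.9% of all genes. The G2 and late G1 groups of Sall4 overlapped in both conditions, while those of L1td1 with auxin and of Dppa4 without auxin were apart, as were 23.3% and 20.7% of all genes in these comparisons. Utf1 was highest in late G1 by its mean, at 53.0 ± 13.9 CPM without auxin against 41.1 ± 6.17 in early G1 (SD, n = 3). That log2 difference of 0.37 ± 0.29 (adjusted p = 0.517) passed with the block (adjusted p = 0.0205), as did the one with auxin (0.34 ± 0.29, adjusted p = 0.536, and 0.0193 with the block). The other members had no called phase difference in either fit.

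Over the phase comparisons without auxin, edgeR called 0 of the 8 for late G1 over early G1, G2 over early G1 and G2 over late G1, where 7.02%, 3.60% and 5.04% of all genes were called. At an unadjusted p under 0.05 the counts were 1, 2 and 0 of 8, against 21.2%, 16.8% and 17.4% of all genes, and DESeq2 called 0 of the 8 in each, against 9.52%, 5.87% and 7.15%. With auxin the late against early G1 and G2 against late G1 comparisons called 0 of 8 against 7.42% and 5.91% of all genes. Unadjusted p under 0.05 was reached by 2 of 8 in each of these, against 21.9% and 18.7% of all genes, and DESeq2 called 0 and 1 of the 8, against 10.2% and 8.11%.

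**Figure D4:**
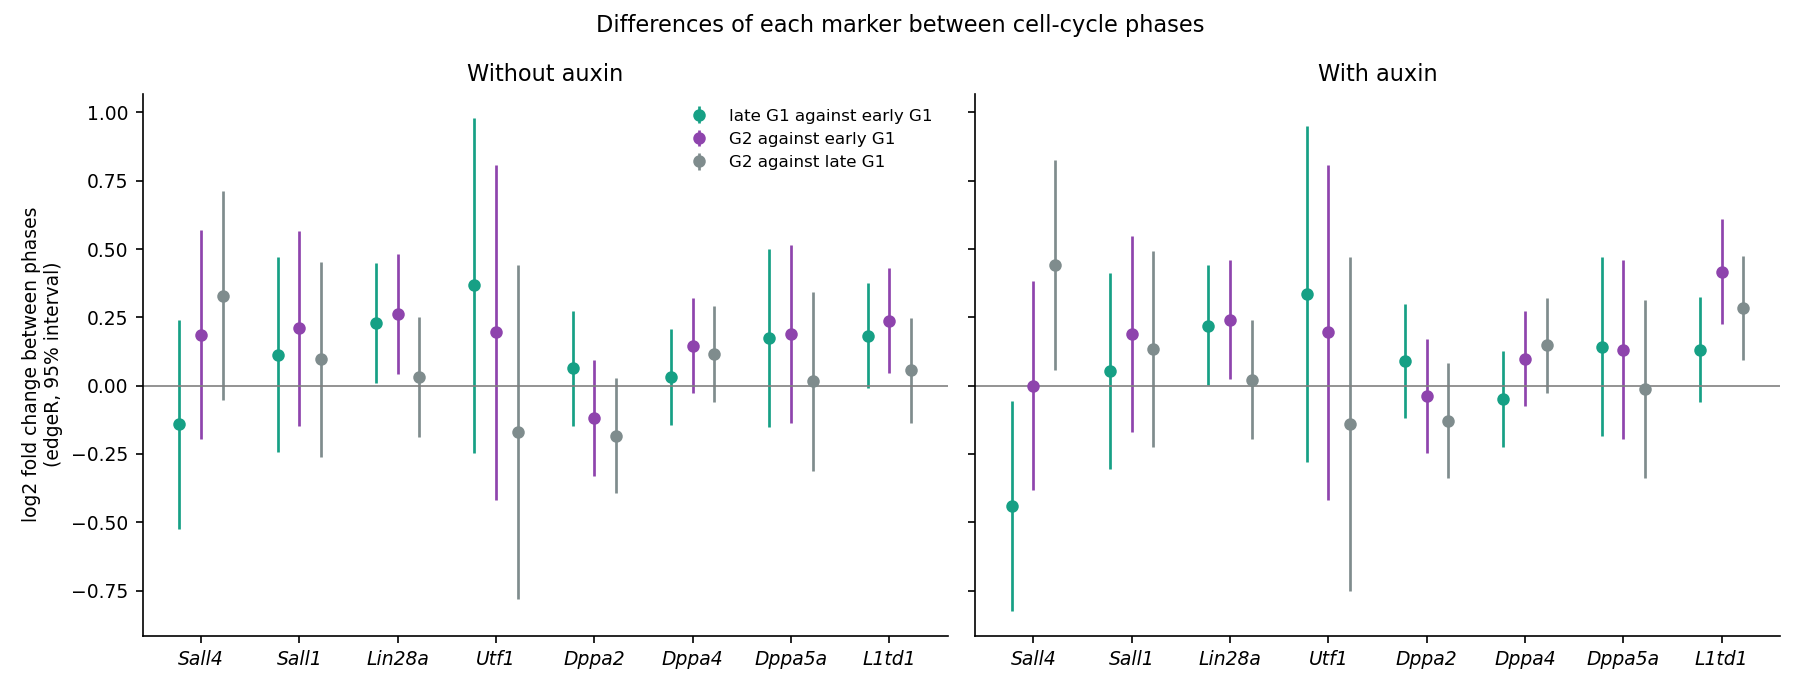
Log2 differences of each gene between phases, without auxin (left) and with auxin (right), with 95% intervals from edgeR. L1td1 in G2 against early G1 with auxin (0.42) is the called difference. The intervals of Lin28a lie above 0 in both G2 and late G1 against early G1, as do the points of Sall1, Utf1, Dppa5a and L1td1.

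The difference of the auxin effect between phases was tested for every gene, and edgeR called 0 of the 16011 genes in any of the 3 contrasts, 0% of the background. None of the 8 reached an unadjusted p under 0.05, as 1.36% to 1.39% of all genes did, and DESeq2 called 0 of the 8. For Sall4 the late G1 effect minus the early G1 effect was -0.30 ± 0.26, with a 95% interval of -0.84 to 0.24 and an adjusted p of 1. The values for late G1 and early G1 are therefore not shown to differ, and the interval is wide.

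A further pattern among the 8 followed the replicate number. Libraries numbered 2 were the highest of their group in 6 of 6 groups for Utf1, Lin28a and Dppa2, and in 5 of 6 for Sall4 and L1td1. The same libraries were the lowest in 6 of 6 groups for Dppa4 and Dppa5a. Utf1 shows the size: in G2 with auxin, replicate 2 had 60.8 CPM and replicates 1 and 3 had 30.7 and 33.5 CPM.

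With each group's mean removed, Sall4 and Utf1 had a Pearson r of 0.93 over the 18 libraries, Sall4 and Sall1 of 0.87, Lin28a and Dppa2 of 0.80, and Lin28a and L1td1 of 0.79. Dppa4 and Dppa5a had 0.72 with each other and opposite signs to the rest, with -0.92 and -0.89 for their relation to Utf1. Dppa2 and Dppa4, whose proteins work as a pair and whose genes are neighbours, had -0.68. These values describe 18 libraries that share 3 replicate numbers and their preparation, so they carry few independent points, and they are given with no test. What a replicate number stands for is not stated in the labels, and its part in the auxin values was not tested beyond the blocked fits.

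**Figure D5:**
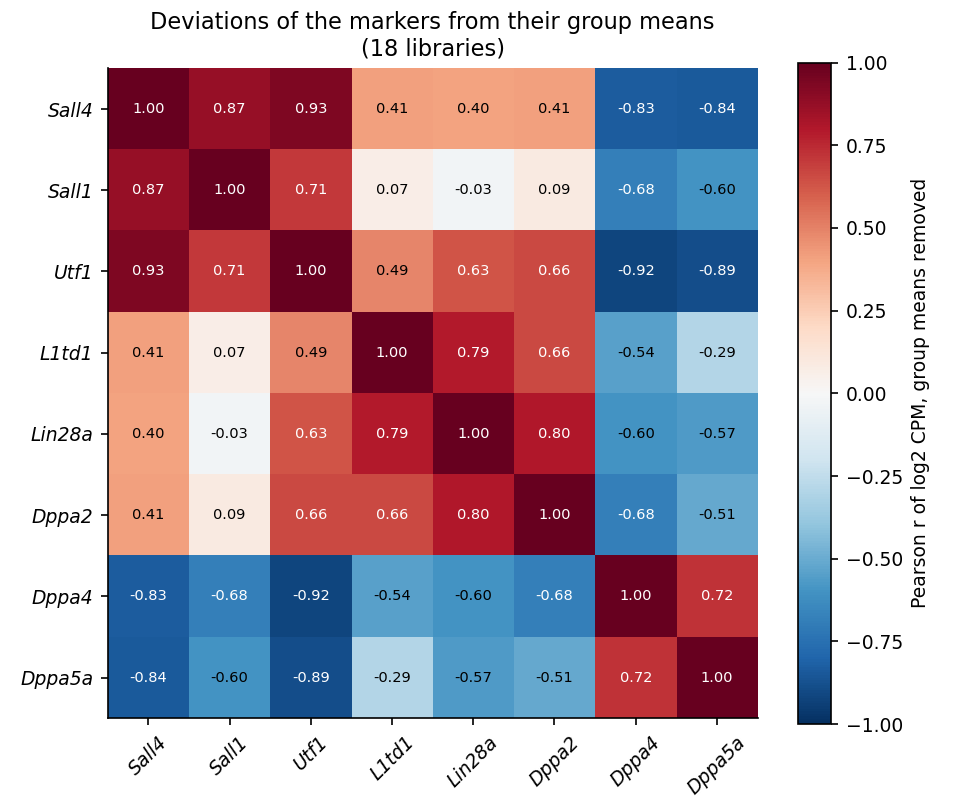
Pearson r of log2 CPM between the 8 genes after removal of each group's mean, over 18 libraries; red is positive and blue negative. Sall4, Sall1 and Utf1 form a positive block (0.71 to 0.93), and Dppa4 and Dppa5a are negative with every other gene.

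Among 7931 other genes with sufficient level, those most like each member over the 18 libraries were listed by Pearson r of log2 CPM, as a description. Sall4 was closest to Zfp462 (0.962), a zinc-finger gene, and to Ctnnd1 and Zc3h13 (both 0.943). Sall1 was closest to Srrm2 (0.968), Rbm33 (0.960) and Zfp609 (0.956). Utf1 was closest to Trp53 (0.968), the p53 gene, then Sf1 (0.956) and Pml (0.946). Dppa5a was closest to Rps3 (0.960), a ribosomal protein gene, Srsf3 (0.955) and Rpl35a (0.936).
Lin28a was closest to Cs (0.930), the citrate synthase gene, Kpnb1 (0.921) and Cfl1 (0.918). Dppa2 was closest to Arf4 (0.906), Dppa4 to Nemf (0.912) and L1td1 to Gpatch4 (0.894).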

How the data were processed

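RNA-seq libraries of 6 groups of 3 were used, with groups and replicate numbers from the sample titles. The authors' deposited count table holds expected counts rounded to whole numbers, and a second table deposited by the authors holds TPM. Per the submitters' processing notes, the tools included STAR and RSEM, Bowtie2 and MACS2, and the build was mm9, without roles or versions. The strand setting is not given in the sources used here. The authors' table of ATAC and MNase profile values, whose unit is another one, was not used, nor were the ChIP-seq libraries.

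Genes were kept by filterByExpr (16011 of 37620) and all 18 libraries were fitted in edgeR 4.0.16 (TMM, quasi-likelihood, 12 residual degrees of freedom, common biological coefficient of variation 0.14). The average is the mean of the 3 phase contrasts. A call needed a p under 0.05 after Benjamini-Hochberg adjustment over all genes tested. TPM were tested with limma 3.58.1 on log2(TPM + 1), where fold changes of low genes are understated. Other alternatives were DESeq2 1.42.0, RLE scaling, other filters, left-out libraries and the replicate block. Scripts were tested on simulated data. Totals of 24841963 to 37587322 counts give the depth, and intervals are 95% ones from the fit.

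Replicate numbers are not stated to pair libraries. Deviations from the group means correlated over 0.1 in every same-number pair for auxin in early G1 (0.26 to 0.29), for auxin in late G1 (0.22 to 0.29) and for all phase comparisons (lowest 0.19), but not for auxin in G2 (lowest 0.05). Blocked values stand beside the former where they change a call.

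The members and the gene lists were chosen with earlier results of these data known. All 8 members are named whatever their values, as are the 3 genes most like each by Pearson r of log2 CPM over 18 libraries (mean log2 CPM of at least 3, no unnamed models), and up to 4 called genes of each list by p. One gene that met this rule is not reported here. Sall2, Sall3, Lin28b, Chd4, Rbbp4, Dppa3 and Zscan4c were added as relatives or examples after their values were seen. The lists were Sall family and NuRD partners, the Lin28 and let-7 axis, germline and 2-cell genes, and other undifferentiated ES cell genes.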

Additional observations from a re-analysis of the deposited data

How the results depend on the processing

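Of 31 log2 changes described, over 689 alternatives, 609 kept their sign and side of the threshold, 11 lost a call, 36 gained one and 33 took the other sign, 0 of these past the threshold. The cause of these shifts was not tested.

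With the replicate block, which treats same-numbered libraries as pairs, the number of the 8 genes called became 2 for auxin in late G1, 1 for auxin in G2, 6 for the auxin average (higher for Lin28a and Dppa5a, lower for Sall4, Sall1, Utf1 and L1td1), 2, 2 and 1 for late against early G1, G2 against early G1 and G2 against late G1 without auxin, and 3, 2 and 2 for these with auxin. The pairing was not found for G2, where the lowest correlation was 0.05, so the G2 and average values are not paired results. All 18 libraries correlated best with their own number, a hint from the data and not from the design. The block changed the count of all genes called to 255, 952 and 562 for auxin in the 3 phases in order and 3939 in their average, to 3487, 2360 and 2541 for the phase comparisons without auxin, to 3616, 2431 and 2833 for those with auxin, and to 1 for the late minus early G1 auxin effect, and it changed no other count by over 1.5 times.

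The count of the 8 genes called in the auxin average was 2 (Sall4 and Sall1) with RLE scaling, with DESeq2 and with the stricter filter. That filter asked for CPM of at least 1 in 3 libraries. In this average DESeq2 called 8.63% of all genes and the main fit 5.68%. The count was also 2 on TPM with pseudocount 0.1, there Sall4 and L1td1, and it was 0 without the 3 untreated libraries numbered 3. In DESeq2 it was 1 for auxin in late G1 and 1 for G2 against late G1 with auxin, against 1.99% and 8.11% of all genes. For G2 against late G1 with auxin, leaving out the 3 untreated libraries numbered 3 also gave 1. For G2 against early G1 with auxin it was 0 on TPM with either pseudocount. Without the 3 auxin-treated libraries numbered 2, chosen after seeing the data, it was 1, 1, 4 and 0 for auxin in late G1, in G2, in the average and for G2 against early G1 with auxin. That fit called 93, 69, 2015 and 228 of all genes in these comparisons. It kept the untreated libraries numbered 2, so its auxin values are unbalanced in replicate number. In fits without 1 library or 1 replicate number the count of the 8 ranged from 0 to 2 for the auxin average and from 0 to 1 for G2 against early G1 with auxin.

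All genes called for auxin in the 3 phases, in the order early G1, late G1, G2, were 17, 163 and 107, and they were 6, 94 and 44 with only the groups compared, 2, 9 and 8 on TPM with pseudocount 1, 2, 10 and 6 with pseudocount 0.1, and 50, 319 and 223 with DESeq2, which gave 1381 in the average against 910. For late against early G1, G2 against early G1 and G2 against late G1 without auxin (1124, 576 and 807) they were 349, 161 and 360 with only the groups compared, 239, 86 and 202 on TPM with pseudocount 1, 212, 66 and 187 with pseudocount 0.1, and 594, 213 and 494 without the untreated libraries numbered 3, which gave 9 for auxin in early G1. For these with auxin (1188, 622 and 946) TPM gave 152, 63 and 179, or 167, 61 and 187 with pseudocount 0.1, and the groups compared alone gave 330 and 475 for the last pair. DESeq2 gave 940 and 938 for G2 against early G1 without and with auxin, and 1 for the late minus early G1 auxin effect. Without the auxin-treated libraries numbered 2 the counts were 8, 93, 69 and 2015 for auxin and 421, 228 and 399 for the phases with auxin. Leaving out 1 library or number gave ranges of 0 to 18, 20 to 119, 7 to 73 and 364 to 1246 for auxin in the same order and the average, 207 to 856, 73 to 398 and 208 to 621 for the phases without auxin, and 221 to 859, 91 to 492 and 254 to 800 with it.

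Changes of sign were of values near 0 or on the TPM scale. L1td1 with auxin in G2 (0.00) was -0.001 with RLE scaling and with DESeq2, -0.003 with the stricter filter, -0.002 with only the groups compared, -0.18 on TPM with either pseudocount, -0.009 without the auxin-treated libraries numbered 2, and from -0.060 to 0.041 in the leave-out fits. In the auxin average on TPM with pseudocounts 1 and 0.1, Lin28a was -0.09 and -0.10, Dppa2 -0.14 and -0.16, Dppa4 -0.187 and -0.205, and Dppa5a -0.042 with each, while the median of all genes was -0.08 and -0.16. Dppa2 was -0.023 without the untreated libraries numbered 3, -0.008 without the auxin-treated ones numbered 2 and from -0.025 to 0.079 in the leave-out fits. Dppa4 was 0.00 with the stricter filter and from -0.041 to 0.030 in the leave-out fits. With 3 libraries a group, the spread between them and not the read depth limits these values.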
